A study of Mus musculus with 31 samples.

Results

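The enzymes and regulators of glutathione, thioredoxin and antioxidant defence were followed as 37 named genes, matched by symbol, among 55487 to 56980 genes listed in 3 count tables. Where a symbol had several entries, the entry with the most counts was taken. With the conditioned media 36 members had enough counts to be tested, with Gpx3 left untested there, and all 37 were tested in the other tables. The cells are Panc02, a mouse pancreatic adenocarcinoma line. In the first table WT spheroids in Matrigel were kept in control medium with matched serum (Ctrl), in conditioned medium of unstimulated bone marrow-derived macrophages (M0-CM) or in that of macrophages given IFNγ and then LPS (M1-CM), with 3 samples each and harvest on day 10. The medium that macrophages conditioned also held supernatant of L929 cells, which the study's methods do not name for the control medium. In the second, WT and Cxcl5-/- cells were grown in 2D culture or as 3D spheroids, giving 4 groups of 3 samples. The rescue experiment used 3D culture: WT and Cxcl5-/- cells had 2 samples each, and Cxcl5-/- cells with mutant Hif1a overexpression (Hif1a OE Cxcl5-/-, a stabilized mouse Hif1a from a retroviral vector) or with Myc overexpression (Myc OE Cxcl5-/-) had 3 each. All Cxcl5-/- cells went through a lentiviral CRISPR/Cas9 vector and puromycin selection. The Hif1a and Myc cells received a further retroviral vector, also with puromycin selection. No empty-vector group is named for the WT cells, nor for the Cxcl5-/- cells that the overexpressing cells are compared with. Whether the knockout is a clone or a pool is not given in the sources used here. For the rescue samples, the line name in the labels carries a number that increases with each sample, while the study's methods name Panc02. The study's methods speak of biological replicates and of repeated independent experiments in general, and no label or method used here ties these RNA samples to separate cultures. If they were not separate, p-values measure only the spread between these samples.

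Cells keep peroxides and oxidants low with 2 thiol systems. Cystine is imported and reduced to cysteine, glutathione is built from it in 2 enzymatic steps, glutathione peroxidases and transferases spend it, and glutathione reductase restores it with NADPH, while thioredoxin, its reductases and the peroxiredoxins form a parallel chain. Many of these genes are targets of the transcription factor NRF2 (gene Nfe2l2), which KEAP1 holds down until oxidants or electrophiles arrive, and the same supply of cysteine and glutathione is what GPX4 uses against the lipid peroxides of ferroptosis.

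The 31 libraries held 41542533 to 78498230 counts each. Cxcl5 transcript was not lost in the libraries labelled Cxcl5-/-. Its mean was 47.3 CPM (counts scaled to library size, here corrected by TMM) in 2D WT, 34.3 in 2D Cxcl5-/-, 27.01 in 3D WT and 50.6 in 3D Cxcl5-/- samples. The log2 fold change between 3D Cxcl5-/- and 3D WT was 0.91 ± 0.14 (adjusted p = 0.000173), so the count does not check the knockout label. In the rescue samples it was 66.0 CPM in WT and 38.4 in Cxcl5-/-. Myc was at 490.2 CPM in Myc OE Cxcl5-/- and 21.1 in Cxcl5-/-, whereas Hif1a was at 266 in Hif1a OE Cxcl5-/- and 258 in Myc OE Cxcl5-/-, against 139 in Cxcl5-/-, so Hif1a counts did not set apart the group labelled for its overexpression. In the study's methods the knockout was checked on protein, by immunoblot for CXCL5, and the expression of Hif1a and Myc by qRT-PCR. The epithelial markers Cdh1 and Epcam stayed at or under 0.609 and 0.552 CPM in every sample, although the keratins Krt8 and Krt18 reached 648 and 384. The summed level of 7 ductal markers was 217 to 236 CPM in 3D Cxcl5-/- against 853 to 1097 in 3D WT samples, and that of 6 fibroblast markers was 396 to 453 against 156 to 169. In the rescue samples the ductal sum was 287 to 302 in Cxcl5-/-, 856 to 903 in WT, 705 to 837 in Hif1a OE Cxcl5-/- and 267 to 312 in Myc OE Cxcl5-/-, and the fibroblast sum was 458 to 466, 77.0 to 81.4, 136 to 173 and 312 to 343 in the same order. In 2D the ductal sum was 546 to 593 in WT and 449.6 to 484 in Cxcl5-/-, and the fibroblast sum 171 to 185 and 172 to 185. In 3D Cxcl5-/- 5 of 7 ductal markers had counts, with Cdh1 and Epcam at 0, against 7 of 7 in 3D WT, and 6 of 6 fibroblast markers had counts in both. A marker was included here if any library of the group had a count. Cdh1 in 3D WT had 5 counts in replicate 1 and 0 in the others, so these numbers do not show a set of markers lost. Macrophage markers (6 genes) summed to at most 25.7 CPM, with Adgre1 at or under 0.717. The sums did not move as whole lists. In 3D the rise in the fibroblast sum came from Pdgfra (mean 213.9 CPM in Cxcl5-/- against 21.4 in WT) and Pdgfrb (206 against 88.3), while Dcn (2.82 against 37.7), Lum (2.85 against 6.87), Col1a1 (4.21 against 6.39) and Col1a2 (1.08 against 2.25) had lower means. In the rescue samples Pdgfra, Pdgfrb, Dcn, Lum and Col1a1 had higher and Col1a2 a lower mean in Cxcl5-/- than in WT. The fall in the ductal sum in 3D came from Krt8 (147 CPM in Cxcl5-/- against 569 in WT), Krt18 (58.4 against 347) and Krt19 (0.132 against 43.7), while Krt7 (3.15 against 0.720) and Sox9 (20.2 against 13.6) had higher means. These genes moved with the 3D and rescue comparisons below, and their part in the results was not tested. In bulk RNA, fewer cells of a type and less RNA per cell cannot be told apart.

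Per kb of annotated exon, thioredoxin (Txn1) was the most abundant member, at 607 CPM per kb in 2D WT, 396 in 3D WT and 163 in 3D Cxcl5-/- means. In Ctrl spheroids it stood at 275 CPM per kb, followed by Gpx4 at 160.2 and Prdx1 at 146. The 4 members of low level, Ggct, Gpx3, Gstm5 and Gstt1, did not reach a mean of 10 CPM in any group.

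**Figure D1:**
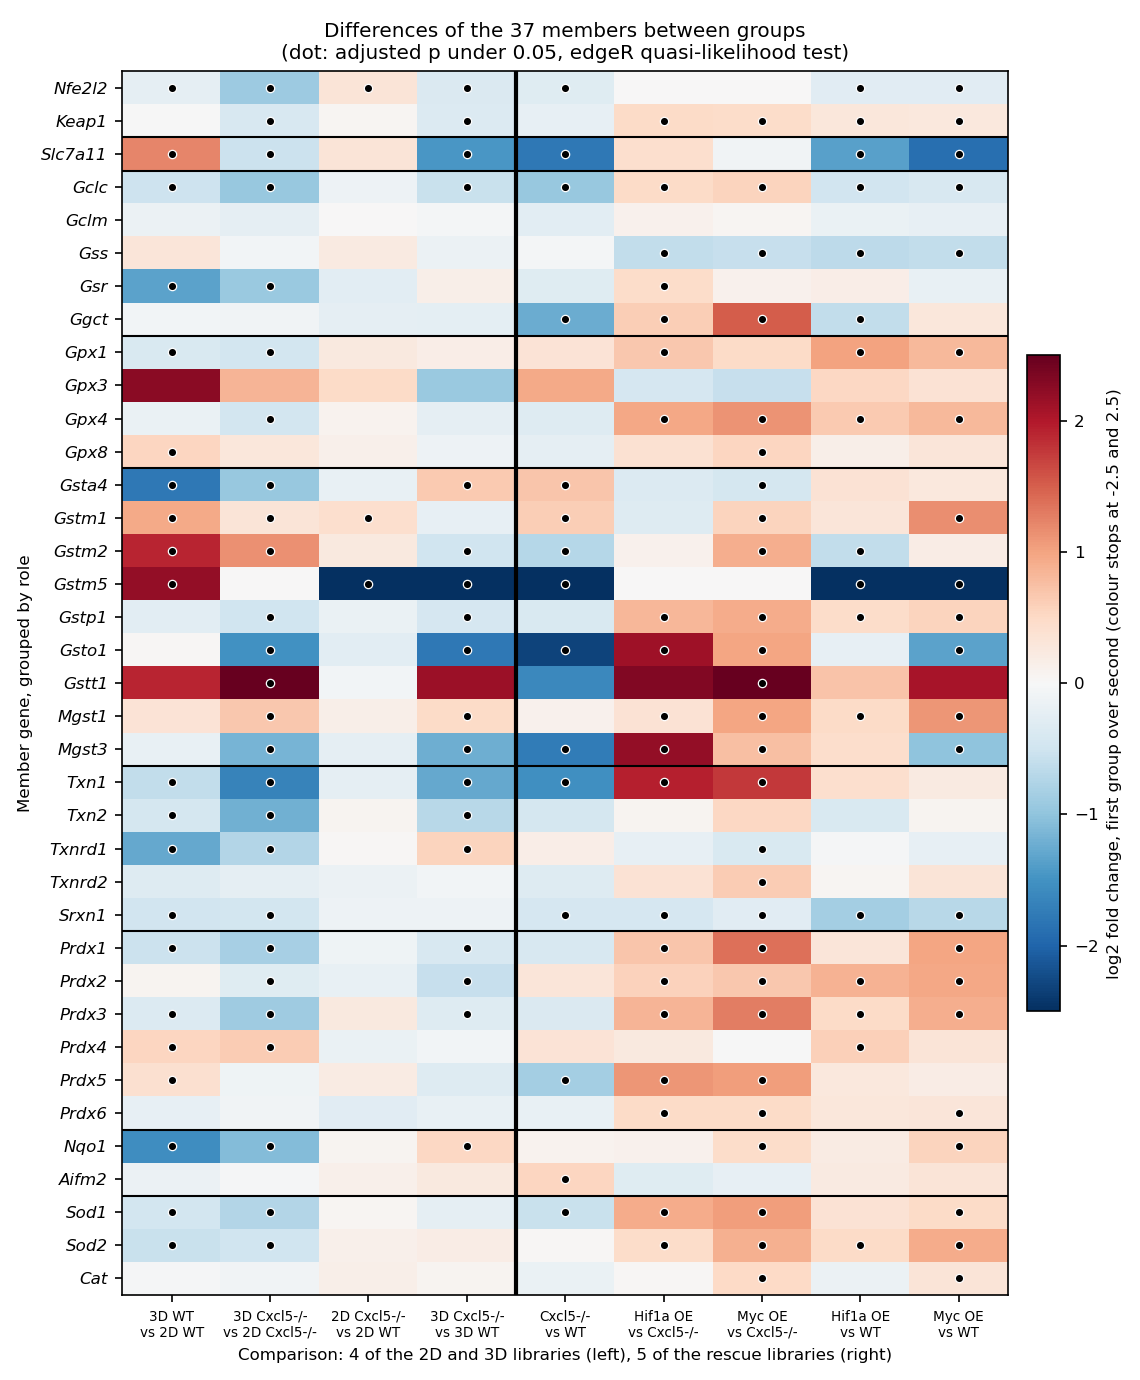
Log2 fold change (colour, which stops at the ends of its scale) of each of the 37 members, grouped by role, in 9 comparisons. Dots mark an adjusted p under 0.05, the conditioned media are not shown, and the Gstm5 colours rest on 0 counts in Cxcl5-/- libraries.

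Conditioned media were compared with control medium, where L929 cell supernatant also differs, and with each other, to ask what macrophage factors do to spheroids. No member passed the test in any of these comparisons with edgeR (0 of 36 members, where 0.0156% of all genes were called for M1-CM against Ctrl, 0.0156% for M1-CM against M0-CM and 0% for M0-CM against Ctrl), and DESeq2 also called 0 members. At an unadjusted p under 0.05 stood 2 members higher and 5 lower in M1-CM than in Ctrl (3.05% and 1.65% of all genes), 1 higher and 2 lower in M1-CM than in M0-CM (1.61% and 0.984%), and 2 higher and 0 lower in M0-CM than in Ctrl (2.15% and 0.817%). The median log2 fold change of the members was -0.11 for M1-CM against Ctrl, beside 0.015 over all genes tested. Nqo1, a quinone reductase, was at 77.2, 197 and 141 CPM in Ctrl, 81.8, 119 and 123 in M0-CM and 67.99, 44.8 and 97.1 in M1-CM libraries. The highest M1-CM value lay above the lowest Ctrl value, so the groups overlapped, and the log2 fold change was -0.98 ± 0.36 (adjusted p = 0.965). Mgst1, a microsomal glutathione transferase, was at 107, 138 and 143 CPM in Ctrl, 103, 109.5 and 117 in M0-CM and 105, 71.5 and 99.8 in M1-CM libraries, with all M1-CM values under all Ctrl values and a log2 fold change of -0.49 ± 0.18 (adjusted p = 0.965).

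Sod2, the mitochondrial superoxide dismutase, was at 69.6, 83.2 and 73.6 CPM in Ctrl, 67.02, 71.1 and 68.6 in M0-CM and 123, 79.9 and 97.7 in M1-CM libraries. Its M0-CM and M1-CM values did not overlap, and the log2 fold change between them was 0.54 ± 0.17 (adjusted p = 0.989). The cystine importer Slc7a11 was at 26.8, 12.99 and 25.9 CPM in Ctrl, 35.01, 21.2 and 31.8 in M0-CM and 14.9, 20.5 and 19.3 in M1-CM libraries. All M1-CM values lay under all M0-CM values, and the log2 fold change was -0.69 ± 0.29 (adjusted p = 0.989), while against Ctrl the values overlapped. Gstt1, a theta-class transferase, had 0 counts in each Ctrl library, 3, 0 and 12 in M0-CM and 10, 36 and 6 in M1-CM, too few for a fold change to be given. Srxn1, sulfiredoxin, was at 86.3, 103 and 105 CPM in Ctrl, 93.7, 102 and 102 in M0-CM and 80.03, 67.4 and 88.1 in M1-CM libraries. All its M1-CM values lay under all M0-CM values, and the log2 fold change was -0.34 ± 0.14 (adjusted p = 0.989). Gstm5, a mu-class transferase, was at 3.41, 2.604 and 2.28 CPM in Ctrl, 4.43, 4.94 and 3.52 in M0-CM and 3.78, 3.91 and 3.11 in M1-CM libraries. All its M0-CM values lay above all Ctrl values, and the log2 fold change was 0.64 ± 0.27 (adjusted p = 1). Txnrd1, thioredoxin reductase, was at 119, 166 and 136 CPM in Ctrl, 118, 119 and 106 in M0-CM and 109, 103 and 108 in M1-CM libraries. Its M0-CM values lay under all Ctrl values, though the nearest pair stood at 118.6 and 119.4, and the log2 fold change was -0.30 ± 0.14 (adjusted p = 1). M1-CM replicate 2 gave the lowest M1-CM value of Nqo1, Mgst1 and Sod2. Nfe2l2 was at 94.1, 99.6 and 90.3 CPM in Ctrl, 92.7, 91.9 and 108 in M0-CM and 84.1, 79.00 and 97.99 in M1-CM libraries and Keap1 at 72.1, 86.5 and 87.1 CPM in Ctrl, 73.6, 105 and 91.7 in M0-CM and 84.6, 65.8 and 96.04 in M1-CM libraries. Gclc, the catalytic subunit of the first step of glutathione synthesis, was at 49.9, 62.2 and 52.4 CPM in Ctrl, 62.6, 60.97 and 61.3 in M0-CM and 58.6, 54.00 and 62.1 in M1-CM libraries. Gpx4 was at 229.8, 289 and 309.9 CPM in Ctrl, 247, 304 and 309 in M0-CM and 271, 143 and 300.3 in M1-CM libraries, with the M1-CM replicate 2 value the lowest of all 9. Aifm2, the ubiquinone reductase also called FSP1, was at 15.8, 17.7 and 17.1 CPM in Ctrl, 15.4, 20.7 and 18.1 in M0-CM and 17.5, 9.62 and 16.9 in M1-CM libraries, and M1-CM replicate 2 was again the lowest.

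Growth as spheroids was compared with 2D culture in WT cells. Of the 37 members 7 were higher and 14 lower in 3D WT than in 2D WT, where 22.2% of all genes were called higher and 22.0% lower. Nqo1, Gsr, Txnrd1 and Gsta4 were among those lower, while Slc7a11 and the transferases Gstm1, Gstm2 and Gstm5 were higher. The members' median log2 fold change was -0.16, beside 0.00 over all genes. By role, 4 of 5 thioredoxin-system genes, 2 of 5 synthesis genes, and 2 of 3 superoxide dismutase and catalase genes were lower, and 3 of 9 transferases were higher and 1 lower. Scaling by library totals moved the median of all genes to -0.21 and the members' counts to 6 higher and 23 lower, and DESeq2 size factors gave 9 and 9. Across all 3 scalings 6 higher and 9 lower members were called in the same direction. Here and below the shares of all genes called are those with TMM, so counts under other scalings have no matching share beside them.

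In the knockout, 3D Cxcl5-/- and 3D WT spheroids differed at 4 members that were higher and 14 that were lower in Cxcl5-/-, where 19.7% of all genes were called higher and 25.3% lower. The cystine importer, the rate-limiting synthesis enzyme Gclc, thioredoxin and several transferases were lower, and Nqo1, Txnrd1, Gsta4 and Mgst1 were higher. Transferases gave 2 higher and 5 lower of 9, peroxiredoxins 0 and 3 of 6, and the thioredoxin system 1 and 2 of 5, whereas none of the 4 peroxidases and none of the 3 superoxide dismutase and catalase genes passed. The members' median log2 fold change was -0.22, beside -0.04 over all genes. With library totals the median of all genes moved to 0.35 and the members' counts to 13 higher and 5 lower. The members' median less that of all genes was -0.19 there, compared with -0.18 in TMM. Without the filter on low counts this difference was 0.057, from medians of -0.13 for the members and -0.18 for all genes, so its sign depends on that filter. Gsta4, Mgst1, Nqo1 and Txnrd1 (higher) and Gstm5, Gsto1, Mgst3, Slc7a11 and Txn1 (lower) were called in the same direction under all 3 scalings.

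**Figure D2:**
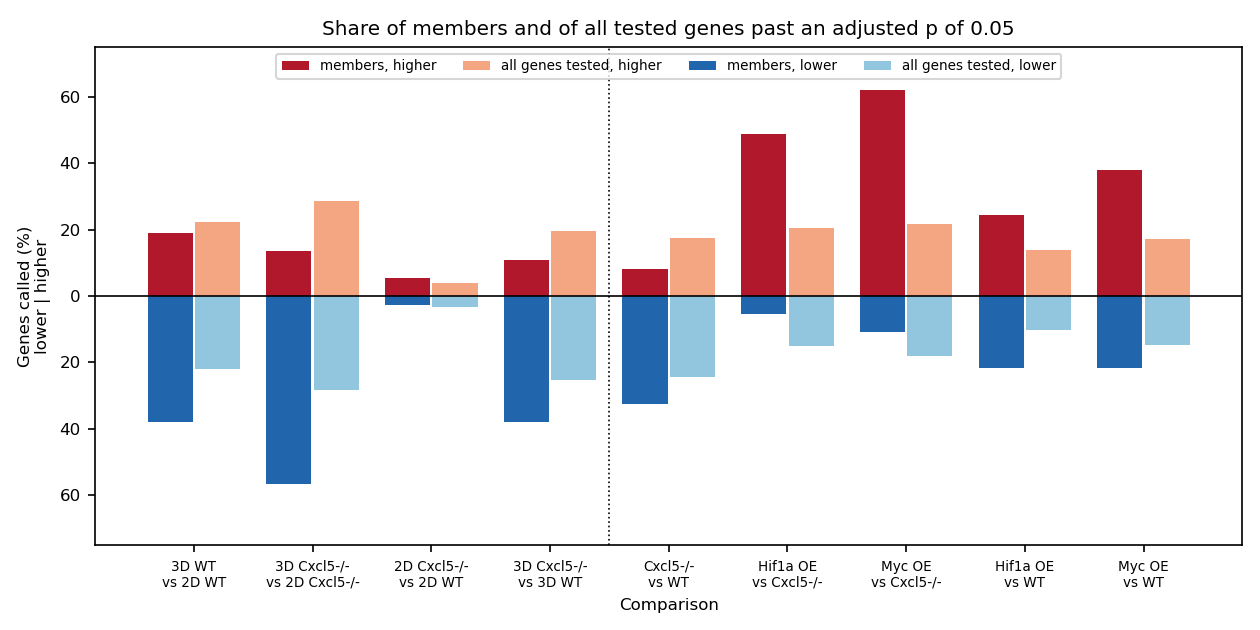
Percent of the members and of all genes tested that were called higher or lower (adjusted p under 0.05) in each of 9 comparisons. In 3D Cxcl5-/- against 3D WT, 4 members were higher and 14 lower, and in Myc OE Cxcl5-/- against Cxcl5-/- 23 were higher and 4 lower.

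Slc7a11, the light chain that carries cystine in through system xc-, was at 29.99, 28.8 and 27.7 CPM in 2D WT and 38.7, 36.9 and 31.9 CPM in 2D Cxcl5-/- libraries. Spheroid values of Slc7a11 were 60.3, 74.7 and 67.2 CPM in 3D WT and 26.4, 25.1 and 22.1 CPM in 3D Cxcl5-/- libraries. The 3D WT samples were above all others and the 3D Cxcl5-/- samples below all others. The log2 fold change was 1.23 ± 0.10 (adjusted p = 4.89e-07) for 3D WT against 2D WT and -1.46 ± 0.10 (adjusted p = 1.39e-07) for 3D Cxcl5-/- against 3D WT. In 2D the genotype difference was 0.31 ± 0.10 (adjusted p = 0.0935), with all Cxcl5-/- values above all WT values, and it passed with DESeq2 (0.33, adjusted p = 0.0482) and without 2D Cxcl5-/- replicate 3 (0.42, adjusted p = 0.0485). Within Cxcl5-/- cells, 3D was lower than 2D at -0.55 ± 0.10 (adjusted p = 0.000465).

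**Figure D3:**
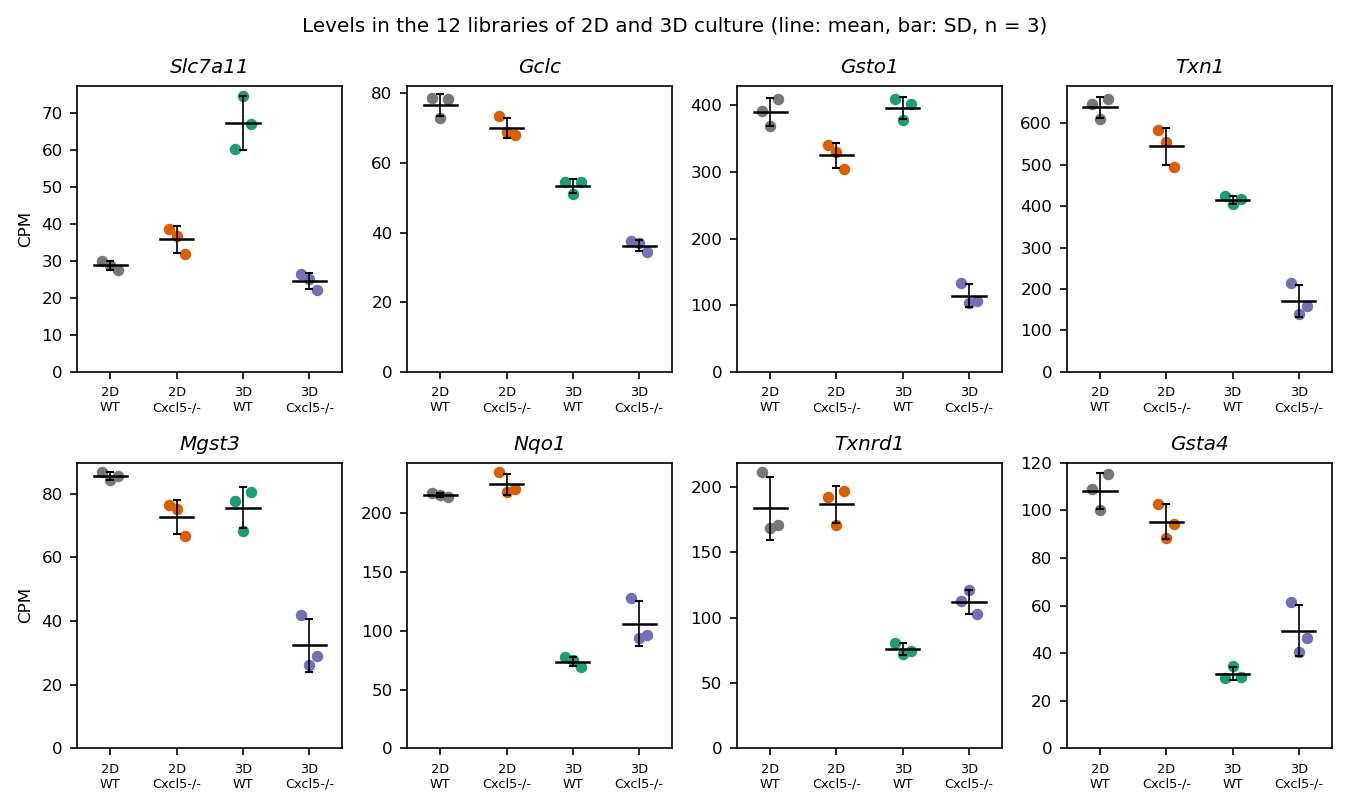
Level in CPM (linear axis from 0) of 8 members in each 2D and 3D sample, with the mean as a line and the SD (n = 3) as a bar. Slc7a11 is highest in 3D WT, Gsto1, Txn1 and Mgst3 are lowest in 3D Cxcl5-/-, and Nqo1, Txnrd1 and Gsta4 are high in 2D of both genotypes.

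Of the regulators, Nfe2l2 was at 212, 223 and 230.2 CPM in 2D WT and 283, 285 and 268 CPM in 2D Cxcl5-/- libraries. Spheroid values of Nfe2l2 were 181, 191 and 196 CPM in 3D WT and 144, 142 and 157 CPM in 3D Cxcl5-/- libraries. The 2D Cxcl5-/- values were the highest and the 3D Cxcl5-/- values the lowest, without overlap between any 2 groups. The log2 fold change was 0.33 ± 0.075 (adjusted p = 0.0154) between genotypes in 2D, -0.36 ± 0.075 (adjusted p = 0.0016) between genotypes in 3D, -0.23 ± 0.075 (adjusted p = 0.0238) for 3D against 2D in WT and -0.92 ± 0.076 (adjusted p = 2.64e-07) for 3D against 2D in Cxcl5-/-. The 3D genotype difference turned to 0.033 with library totals (adjusted p = 0.793). The WT difference between 3D and 2D did not pass with DESeq2 (-0.16, adjusted p = 0.0629). It was also lost without 2D WT replicate 2 (-0.20) or 3 (-0.17) or 3D WT replicate 1 (-0.18) or 2 (-0.21). The 2D genotype difference was lost without 2D WT replicate 1 (0.31, adjusted p = 0.0639), 2D Cxcl5-/- replicate 1 (0.34, adjusted p = 0.0548) or 2D Cxcl5-/- replicate 2 (0.33, adjusted p = 0.0565). Keap1, the adaptor that marks NRF2 for degradation, was at 60.3, 48.1 and 56.4 CPM in 2D WT and 54.9, 58.1 and 57.3 CPM in 2D Cxcl5-/- libraries. Spheroid values of Keap1 were 65.02, 46.99 and 51.5 CPM in 3D WT and 41.3, 43.6 and 44.5 CPM in 3D Cxcl5-/- libraries. The 3D Cxcl5-/- values lay under all other Keap1 values, with a log2 fold change against 3D WT of -0.34 ± 0.11 (adjusted p = 0.0251) that turned to 0.057 with library totals (adjusted p = 0.738) and was lost without 3D WT replicate 1 (-0.22, adjusted p = 0.0986) or 3D Cxcl5-/- replicate 2 (-0.31, adjusted p = 0.085).

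Among the synthesis and recycling genes, Gclc was at 78.5, 72.95 and 78.5 CPM in 2D WT and 73.4, 68.9 and 68.1 CPM in 2D Cxcl5-/- libraries. Spheroid values of Gclc were 54.5, 51.2 and 54.5 CPM in 3D WT and 37.6, 36.9 and 34.4 CPM in 3D Cxcl5-/- libraries. Both 3D groups lay under both 2D groups, and 3D Cxcl5-/- under 3D WT. Its log2 fold change was -0.52 ± 0.069 (adjusted p = 2.99e-05) for 3D WT against 2D WT, -0.56 ± 0.069 (adjusted p = 2.12e-05) for 3D Cxcl5-/- against 3D WT (-0.17, adjusted p = 0.088 with library totals) and -0.95 ± 0.069 (adjusted p = 7.76e-08) for 3D against 2D in Cxcl5-/-. Gsr, glutathione reductase, was at 140.2, 114 and 132 CPM in 2D WT and 108, 106 and 107 CPM in 2D Cxcl5-/- libraries. Spheroid values of Gsr were 51.1, 47.8 and 53.9 CPM in 3D WT and 60.8, 53.5 and 54.6 CPM in 3D Cxcl5-/- libraries. All 2D values lay above all 3D values, and the log2 fold change was -1.34 ± 0.091 (adjusted p = 6.72e-08) in WT and -0.93 ± 0.090 (adjusted p = 1.18e-06) in Cxcl5-/- cells. The modifier subunit Gclm, glutathione synthetase Gss and the cyclotransferase Ggct, which acts in the gamma-glutamyl cycle, differed between 3D genotypes by -0.06, -0.15 and -0.25 on the log2 scale and did not pass.

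Gsto1, an omega-class glutathione transferase, was at 391, 368 and 409.9 CPM in 2D WT and 341, 329 and 304 CPM in 2D Cxcl5-/- libraries. Spheroid values of Gsto1 were 409.8, 378 and 402 CPM in 3D WT and 134, 103 and 106 CPM in 3D Cxcl5-/- libraries. The 3D Cxcl5-/- samples were far below every other sample, while 2D WT and 3D WT overlapped. The log2 fold change was -1.79 ± 0.10 (adjusted p = 2.26e-08) between 3D genotypes and -1.50 ± 0.10 (adjusted p = 4.24e-08) for 3D against 2D in Cxcl5-/- cells, against -0.26 ± 0.10 (adjusted p = 0.164) between 2D genotypes. Mgst3, a microsomal transferase and peroxidase, was at 86.6, 84.4 and 85.5 CPM in 2D WT and 76.4, 75.1 and 66.7 CPM in 2D Cxcl5-/- libraries. Spheroid values of Mgst3 were 77.7, 68.2 and 80.6 CPM in 3D WT and 41.9, 26.2 and 28.9 CPM in 3D Cxcl5-/- libraries. Its 3D Cxcl5-/- values were likewise the lowest, at a log2 fold change of -1.22 ± 0.14 (adjusted p = 1.08e-05) against 3D WT. Gsta4, which conjugates the lipid peroxidation product 4-hydroxynonenal, was at 109, 100.2 and 115 CPM in 2D WT and 103, 88.3 and 94.4 CPM in 2D Cxcl5-/- libraries. Spheroid values of Gsta4 were 29.4, 34.6 and 30.1 CPM in 3D WT and 61.3, 40.4 and 46.4 CPM in 3D Cxcl5-/- libraries. The 3D WT values lay under all others and the 3D Cxcl5-/- values stood between them and the 2D samples, with log2 fold changes of -1.79 ± 0.13 (adjusted p = 1.69e-07) for 3D WT against 2D WT and 0.66 ± 0.13 (adjusted p = 0.00115) between 3D genotypes.

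Gstm2, a mu-class transferase, was at 16.7, 14.04 and 15.6 CPM in 2D WT and 19.03, 21.3 and 14.9 CPM in 2D Cxcl5-/- libraries. Spheroid values of Gstm2 were 58.6, 59.4 and 54.7 CPM in 3D WT and 48.7, 32.95 and 40.2 CPM in 3D Cxcl5-/- libraries. The 3D values were above all 2D values, with a log2 fold change of 1.90 ± 0.15 (adjusted p = 2.52e-07) in WT, and the 3D genotypes differed, with a log2 fold change of -0.50 ± 0.14 (adjusted p = 0.0116), a call lost with library totals (-0.13, adjusted p = 0.414). Gstm1 was at 18.3, 18.3 and 21.8 CPM in 2D WT and 26.4, 26.4 and 25.4 CPM in 2D Cxcl5-/- libraries. Spheroid values of Gstm1 were 37.3, 38.8 and 37.1 CPM in 3D WT and 35.8, 31.05 and 31.4 CPM in 3D Cxcl5-/- libraries. In 2D all Gstm1 values of Cxcl5-/- samples were above those of WT, with a log2 fold change of 0.42 ± 0.091 (adjusted p = 0.0104), which was lost without 2D WT replicate 1 (0.40, adjusted p = 0.0566). Gstm5, another mu-class transferase, was at 0.616, 0.532 and 0.862 CPM in 2D WT and 0, 0 and 0 CPM in 2D Cxcl5-/- libraries. Spheroid values of Gstm5 were 3.703, 2.29 and 3.21 CPM in 3D WT and 0, 0 and 0 CPM in 3D Cxcl5-/- libraries. It had 0 counts in each of the 6 Cxcl5-/- libraries and counts in each of the 6 WT libraries, so against the floor of 3 counts per library it was at least 14.5-fold lower in 2D and at least 63.4-fold lower in 3D. Gstt1 stayed at a mean of at most 1.32 CPM in any group.

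Of the thioredoxin system, Txn1 was at 647, 609.7 and 658 CPM in 2D WT and 584, 555 and 494 CPM in 2D Cxcl5-/- libraries. Spheroid values of Txn1 were 425, 406 and 416 CPM in 3D WT and 214, 139.99 and 159.9 CPM in 3D Cxcl5-/- libraries. All 3D WT values lay under all 2D values and all 3D Cxcl5-/- values under all 3D WT values. Its log2 fold change was -0.62 ± 0.13 (adjusted p = 0.00122) for 3D WT against 2D WT, -1.28 ± 0.13 (adjusted p = 3.19e-06) between 3D genotypes and -1.67 ± 0.13 (adjusted p = 1.45e-07) for 3D against 2D in Cxcl5-/- cells. Txnrd1, the cytosolic reductase that recharges thioredoxin, was at 212, 169 and 171 CPM in 2D WT and 192, 171 and 197 CPM in 2D Cxcl5-/- libraries. Spheroid values of Txnrd1 were 80.8, 71.99 and 74.4 CPM in 3D WT and 113, 121 and 103 CPM in 3D Cxcl5-/- libraries. The order was the opposite within 3D, with all Cxcl5-/- values above all WT values, and the log2 fold change was -1.28 ± 0.11 (adjusted p = 4.18e-07) for 3D WT against 2D WT and 0.57 ± 0.10 (adjusted p = 0.000622) between 3D genotypes. Mitochondrial Txn2 was lower in 3D Cxcl5-/-, with a log2 fold change of -0.70 ± 0.16 (adjusted p = 0.00294). Of the peroxiredoxins, which reduce peroxides with electrons from thioredoxin, Prdx2 (-0.57), Prdx1 (-0.40) and Prdx3 (-0.32) were lower in 3D Cxcl5-/- in log2 fold change, Prdx3 turning to 0.058 with library totals (adjusted p = 0.593). Txn2 (-0.31, adjusted p = 0.154), Prdx2 (-0.19, adjusted p = 0.0822) and Prdx1 (-0.033, adjusted p = 0.815) did not pass with library totals either.

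The quinone reductase Nqo1 was at 218, 216 and 214 CPM in 2D WT and 235, 218 and 221 CPM in 2D Cxcl5-/- libraries. Spheroid values of Nqo1 were 77.4, 74.98 and 69.3 CPM in 3D WT and 128, 94.2 and 96.4 CPM in 3D Cxcl5-/- libraries. All 2D samples lay above all 3D samples, and in 3D all Cxcl5-/- values lay above all WT values. Its log2 fold change was -1.55 ± 0.11 (adjusted p = 9.88e-08) for 3D WT against 2D WT, 0.52 ± 0.11 (adjusted p = 0.00131) between 3D genotypes and -1.08 ± 0.11 (adjusted p = 1.56e-06) for 3D against 2D in Cxcl5-/-. Gpx4, the selenoenzyme that reduces phospholipid peroxides, was at 312, 298 and 329.7 CPM in 2D WT and 338, 336 and 325 CPM in 2D Cxcl5-/- libraries. Spheroid values of Gpx4 were 290.3, 257 and 292 CPM in 3D WT and 304, 197 and 222 CPM in 3D Cxcl5-/- libraries. The 3D groups overlapped, with a genotype difference of -0.22 (95% interval -0.47 to 0.035, adjusted p = 0.19), which turned to 0.16 with library totals (adjusted p = 0.179) and passed without 3D Cxcl5-/- replicate 1 (-0.45, adjusted p = 0.00104). Aifm2 was at 12.2, 12.7 and 12.4 CPM in 2D WT and 14.98, 13.1 and 12.6 CPM in 2D Cxcl5-/- libraries. Spheroid values of Aifm2 were 10.2, 12.4 and 10.9 CPM in 3D WT and 14.1, 12.1 and 13.6 CPM in 3D Cxcl5-/- libraries. Its 3D genotype difference was 0.25 (95% interval 0.029 to 0.47, adjusted p = 0.0877) and passed with library totals (0.63, adjusted p = 0.000721) and without 3D Cxcl5-/- replicate 2 (0.35, adjusted p = 0.0463). The 2 annotated Gpx4 pseudogene entries held 31.6 to 33.8% of Gpx4's own counts, and adding them changed no Gpx4 call. The 3D genotype difference of Mgst1 (0.48 ± 0.15, adjusted p = 0.0181) was lost without 3D Cxcl5-/- replicate 1 (0.19, adjusted p = 0.0814), 3D WT replicate 1 (0.48, adjusted p = 0.0532) or 3D WT replicate 2 (0.39, adjusted p = 0.092). Without 3D Cxcl5-/- replicate 2, Gstm2 (-0.33, adjusted p = 0.0882), Prdx1 (-0.24, adjusted p = 0.202) and Prdx3 (-0.18, adjusted p = 0.263) also lost theirs. Prdx1 and Prdx3 did so too without 3D WT replicate 1 (-0.40 and -0.30), 3D WT replicate 3 (-0.40 and -0.32) or 3D Cxcl5-/- replicate 3 (-0.34 and -0.28).

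In 2D culture 2 members were higher and 1 lower in Cxcl5-/-, where 3.86% of all genes were called higher and 3.17% lower, these being Gstm1, Nfe2l2 and Gstm5. Within Cxcl5-/- cells 5 were higher and 21 lower in 3D than in 2D, where 28.7% and 28.2% of all genes were called. The difference between the 3D and the 2D genotype effect was tested as an interaction and was positive for 4 members and negative for 10, where 11.1% and 16.1% of all genes were called. With library totals the counts became 10 and 4, while the median of all genes moved from -0.05 to 0.32. The members' median less that of all genes was then -0.25, compared with -0.23 in TMM and 0.014 without the filter on low counts. Slc7a11 (-1.77 ± 0.15, adjusted p = 2.77e-06), Gsto1 (-1.53 ± 0.14, adjusted p = 8.24e-06), Txn1 (-1.05 ± 0.18, adjusted p = 0.000831) and Mgst3 (-0.99 ± 0.20, adjusted p = 0.00228) had lower, and Gsta4 (0.84 ± 0.18, adjusted p = 0.00452), Txnrd1 (0.54 ± 0.15, adjusted p = 0.0151), Nqo1 (0.46 ± 0.15, adjusted p = 0.0356) and Gsr (0.41 ± 0.13, adjusted p = 0.0275) higher, log2 genotype effects in 3D than in 2D under all 3 scalings.

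The promoters of members were read for the letters of the antioxidant response element core, to which NRF2 binds with small MAF proteins. RefSeq promoters of GRCm38.p6, 250 bases before to 50 after the start, were found for 33 of 37 members. TGACNNNGC on either strand was in 9 of 33 (27.3%), beside 14.0% of 27025 genes. The hypoxia response core ACGTG was in 9 of 33 (27.3%, beside 21.8%), and the E-box CACGTG that MYC binds, which contains ACGTG, in 1 of 33 (3.03%, beside 8.09%), namely Prdx4. A match is a description of the letters and not a bound site. The 69-base stretches below are those of 5 members with a TGACNNNGC match that lies outside exons, chosen to let the matches be compared, and the capitals mark the match, which reads GCNNNGTCA on the gene's strand.
Gclm, chr3:122245393-122245461 (+): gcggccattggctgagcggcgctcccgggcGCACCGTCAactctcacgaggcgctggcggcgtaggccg
Prdx1, chr4:116685436-116685504 (+): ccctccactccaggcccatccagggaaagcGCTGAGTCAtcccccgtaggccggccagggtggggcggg
Ggct, chr6:54993003-54993071 (-): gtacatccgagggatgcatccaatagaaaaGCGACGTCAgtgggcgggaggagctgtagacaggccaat
Txnrd1, chr10:82859084-82859152 (+): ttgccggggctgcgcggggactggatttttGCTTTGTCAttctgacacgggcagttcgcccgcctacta
Sod1, chr16:90220676-90220744 (+): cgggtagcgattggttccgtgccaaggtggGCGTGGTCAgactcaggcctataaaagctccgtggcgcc
The matches begin at position -134 (Gclm), -133 (Prdx1), -174 (Ggct), -92 (Txnrd1) and -56 (Sod1) relative to the RefSeq start of each promoter. For Txnrd1 this start lies inside the annotated gene, which begins at base 82833951 of chr10. Of these 5 members, with TMM, Txnrd1 was higher and Prdx1 lower in 3D Cxcl5-/- against 3D WT, and the other 3 did not pass. The Txnrd1 call held under all 3 scalings. That of Prdx1 was lost with library totals and on leaving out certain single samples, as given above.

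The rescue samples asked what overexpression of stabilized Hif1a or of Myc does in 3D-cultured Cxcl5-/- cells. Cxcl5-/- differed from WT at 3 members that were higher and 12 lower, where 17.6% of all genes were called higher and 24.3% lower. The members' median log2 fold change was -0.30, beside -0.30 over all genes, and the counts were 2 higher and 18 lower with DESeq2 size factors and 5 and 14 with library totals. Under these scalings the median of all genes was -0.39 and -0.25. Without the filter on low counts it was -1.18, beside -0.28 for the members, so the closeness of the 2 medians depends on that filter. Against Cxcl5-/-, Hif1a OE Cxcl5-/- had 18 members higher and 2 lower (20.5% and 15.0% of all genes), and Myc OE Cxcl5-/- had 23 higher and 4 lower (21.6% and 18.0%). The median log2 fold change of the members was 0.43 with Hif1a OE, beside 0.16 over all genes, and 0.54 with Myc OE, beside 0.11. Both overexpression comparisons share the Cxcl5-/- samples. With library totals the counts became 10 higher and 5 lower for Hif1a OE and 15 and 7 for Myc OE, and the members' median less that of all genes was 0.22 and 0.30.

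Peroxiredoxins gave 5 higher of 6 with each gene, and the transferases 4 higher of 9 with Hif1a OE and 7 higher and 1 lower with Myc OE. The peroxidases gave 2 higher of 4 with each. Under all 3 scalings 10 members were higher with Hif1a OE (Gpx4, Gsto1, Gstp1, Mgst3, Prdx1, Prdx2, Prdx3, Prdx5, Sod1 and Txn1) and 2 lower (Gss and Srxn1). With Myc OE 15 were higher under all 3 (Ggct, Gpx4, Gstm2, Gsto1, Gstp1, Gstt1, Mgst1, Mgst3, Prdx1, Prdx2, Prdx3, Prdx5, Sod1, Sod2 and Txn1) and 4 lower (Gss, Gsta4, Srxn1 and Txnrd1). Of these, Prdx2 with Hif1a OE was lost without Cxcl5-/- replicate 1 (0.54). With Myc OE, Gss was lost without Cxcl5-/- replicate 2 (-0.44) and Txnrd1 without Cxcl5-/- replicate 1 (-0.28) or Myc OE replicate 2 (-0.33). Gsta4 was lost with Myc OE without either Cxcl5-/- library (-0.44 and -0.39) or Myc OE replicate 2 (-0.43) or 3 (-0.33).

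**Figure D4:**
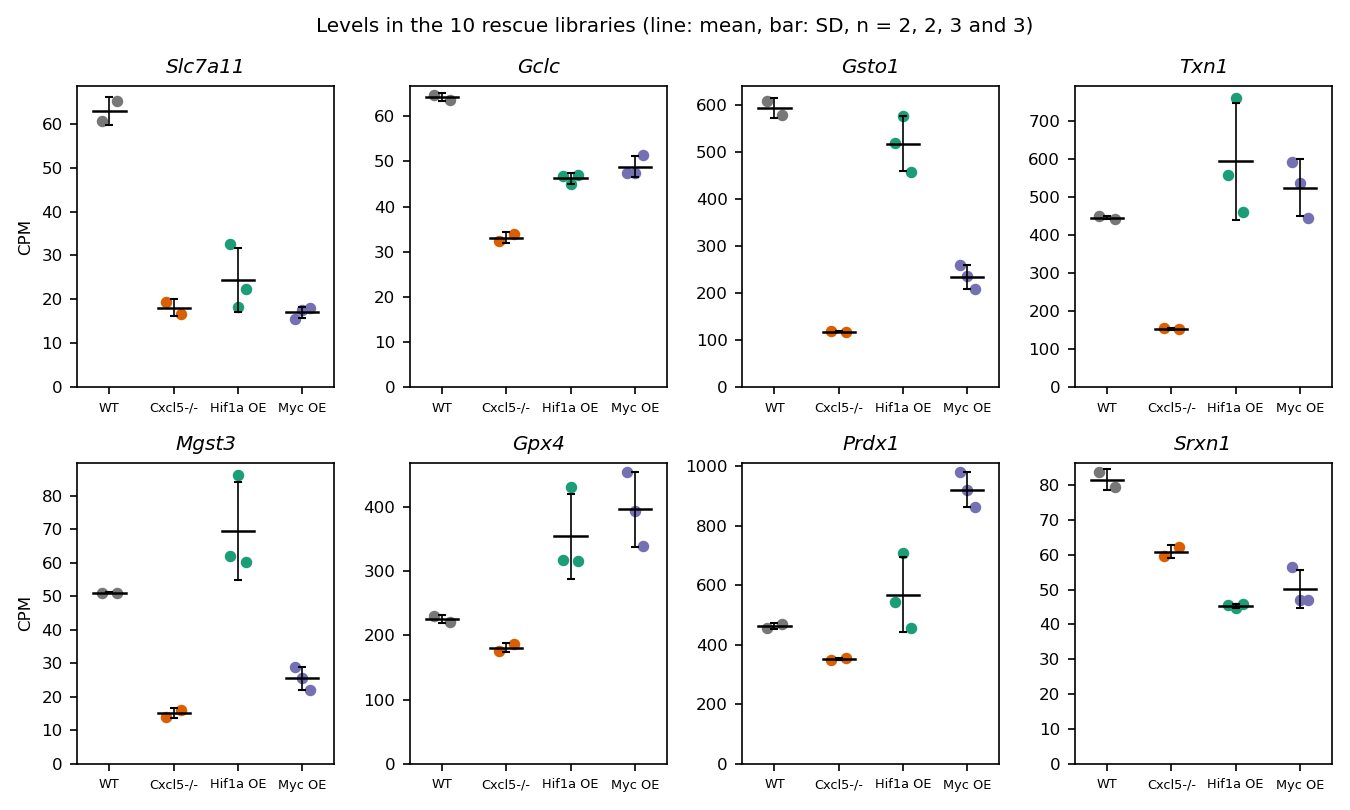
Level in CPM (linear axis from 0) of 8 members in each rescue sample, with the mean as a line and the SD as a bar (n = 2 for WT and Cxcl5-/-, n = 3 for Hif1a OE and Myc OE). Slc7a11 stays low in both overexpression groups, Gsto1 and Mgst3 are higher with Hif1a OE than with Myc OE, and Prdx1 is highest with Myc OE.

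Slc7a11 was at 60.6 and 65.1 CPM in WT and 19.5 and 16.8 CPM in Cxcl5-/- libraries. Slc7a11 levels were 32.6, 18.3 and 22.4 CPM with Hif1a OE and 15.7, 17.5 and 18.1 CPM with Myc OE. The WT samples were far above all others, with a log2 fold change of -1.79 ± 0.21 (adjusted p = 6.38e-05) for Cxcl5-/- against WT. Against Cxcl5-/- the log2 fold change was 0.43 (95% interval 0.047 to 0.81, adjusted p = 0.113) with Hif1a OE and -0.087 (95% interval -0.47 to 0.29, adjusted p = 0.765) with Myc OE, and the former passed without Hif1a OE replicate 2 (0.60, adjusted p = 0.0147). Against WT it was -1.36 ± 0.19 (adjusted p = 0.000515) with Hif1a OE and -1.88 ± 0.19 (adjusted p = 3.15e-05) with Myc OE. Gclc was at 64.8 and 63.5 CPM in WT and 32.3 and 34.03 CPM in Cxcl5-/- libraries. Gclc levels were 46.8, 44.9 and 47.02 CPM with Hif1a OE and 47.5, 47.4 and 51.4 CPM with Myc OE. Both overexpression groups lay between Cxcl5-/- and WT without overlap. Its log2 fold change was -0.95 ± 0.084 (adjusted p = 6.95e-06) for Cxcl5-/- against WT, 0.48 ± 0.077 (adjusted p = 0.000499) with Hif1a OE and 0.56 ± 0.077 (adjusted p = 0.00014) with Myc OE against Cxcl5-/-, the last pair falling to 0.26 and 0.22 with library totals (adjusted p = 0.0912 and 0.128).

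Nfe2l2 was at 187 and 186 CPM in WT and 154 and 149.9 CPM in Cxcl5-/- libraries. Nfe2l2 levels were 160.2, 151 and 146 CPM with Hif1a OE and 158, 155 and 148 CPM with Myc OE. The WT samples were the highest, with a log2 fold change of -0.30 ± 0.081 (adjusted p = 0.0142) for Cxcl5-/- against WT, a call lost with library totals (-0.25, adjusted p = 0.0599) and without any 1 of the 4 libraries (-0.32 to -0.27). Against Cxcl5-/- it was 0.0054 (95% interval -0.14 to 0.15, adjusted p = 0.994) with Hif1a OE and 0.017 (95% interval -0.13 to 0.16, adjusted p = 0.896) with Myc OE, which turned to -0.32 with library totals (adjusted p = 0.0126). Keap1 was at 39.2 and 43.2 CPM in WT and 36.3 and 35.7 CPM in Cxcl5-/- libraries. Keap1 levels were 52.8, 49.9 and 47.5 CPM with Hif1a OE and 49.95, 48.3 and 49.8 CPM with Myc OE. Its values with either gene lay above all Cxcl5-/- and WT values, with a log2 fold change of 0.48 ± 0.081 (adjusted p = 0.000747) with Hif1a OE and 0.46 ± 0.081 (adjusted p = 0.000857) with Myc OE against Cxcl5-/-, and neither passed with library totals (0.25, adjusted p = 0.0691 and 0.12, adjusted p = 0.348).

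Gsto1 was at 609 and 579 CPM in WT and 119.96 and 118 CPM in Cxcl5-/- libraries. Gsto1 levels were 519, 576 and 458 CPM with Hif1a OE and 259, 236 and 209 CPM with Myc OE. The Cxcl5-/- samples were the lowest, Myc OE next, and all Hif1a OE values lay under both WT values. The log2 fold change was -2.32 ± 0.13 (adjusted p = 3e-07) for Cxcl5-/- against WT, 2.12 ± 0.12 (adjusted p = 4.8e-07) with Hif1a OE and 0.98 ± 0.12 (adjusted p = 4.36e-05) with Myc OE against Cxcl5-/-, and -1.14 ± 0.10 (adjusted p = 1.61e-05) for Myc OE against Hif1a OE. Mgst3 was at 51.1 and 50.9 CPM in WT and 14.1 and 16.2 CPM in Cxcl5-/- libraries. Mgst3 levels were 61.9, 86.2 and 60.1 CPM with Hif1a OE and 28.97, 25.6 and 21.98 CPM with Myc OE. It followed the same order at the low end, with all Hif1a OE values above all WT values. Its log2 fold change was -1.75 ± 0.18 (adjusted p = 2.21e-05) for Cxcl5-/- against WT, 2.20 ± 0.17 (adjusted p = 3.65e-06) with Hif1a OE against Cxcl5-/- and -1.44 ± 0.15 (adjusted p = 3.76e-05) for Myc OE against Hif1a OE. Mgst1 was at 108 and 91.3 CPM in WT and 107 and 109 CPM in Cxcl5-/- libraries. Mgst1 levels were 143, 147 and 124 CPM with Hif1a OE and 244, 208 and 186 CPM with Myc OE. The Myc OE values were above all others, with a log2 fold change of 0.98 ± 0.13 (adjusted p = 8.08e-05) against Cxcl5-/- and 0.62 ± 0.11 (adjusted p = 0.00204) against Hif1a OE.

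Gstm1 was at 41.1 and 32.7 CPM in WT and 54.4 and 58.4 CPM in Cxcl5-/- libraries. Gstm1 levels were 42.1, 54.1 and 39.8 CPM with Hif1a OE and 99.8, 79.5 and 69.1 CPM with Myc OE. It was higher with Myc OE than with Hif1a OE, with a log2 fold change of 0.87 ± 0.15 (adjusted p = 0.00194). Gstm2 was at 63.2 and 65.2 CPM in WT and 36.4 and 41.99 CPM in Cxcl5-/- libraries. Gstm2 levels were 39.8, 50.5 and 35.6 CPM with Hif1a OE and 88.6, 71.3 and 60.4 CPM with Myc OE. All Myc OE values of Gstm2 lay above all Hif1a OE values, with a log2 fold change of 0.81 ± 0.15 (adjusted p = 0.00288). Gstm5 was at 2.27 and 2.61 CPM in WT and had 0 counts in each of the 8 other libraries, at least 39.6-fold lower in Cxcl5-/-, at least 44.3-fold lower with Hif1a OE and at least 40.3-fold lower with Myc OE than in WT, against the floor of 3 counts per library. In both tables, then, counts of Gstm5 were seen in WT libraries and in no Cxcl5-/- library. Gsta4 was higher in Cxcl5-/- than in WT (0.69) and lower with Myc OE than in Cxcl5-/- (-0.43) in log2 fold change, while Gstp1 was higher with Hif1a OE (0.83).

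Txn1 was at 449.6 and 443 CPM in WT and 155 and 152 CPM in Cxcl5-/- libraries. Txn1 levels were 559, 762 and 462 CPM with Hif1a OE and 592, 537 and 445 CPM with Myc OE. The Cxcl5-/- samples were the lowest and the overexpression groups reached or passed the WT values. Its log2 fold change was -1.54 ± 0.20 (adjusted p = 0.000117) for Cxcl5-/- against WT, 1.95 ± 0.19 (adjusted p = 1.62e-05) with Hif1a OE and 1.77 ± 0.19 (adjusted p = 2.14e-05) with Myc OE against Cxcl5-/-. Hif1a OE replicate 2 gave the highest value of its group for Txn1, Mgst3, Prdx1, Prdx3, Prdx5 and Gpx4. Srxn1, sulfiredoxin, which repairs overoxidised peroxiredoxins, was at 83.6 and 79.5 CPM in WT and 59.6 and 62.3 CPM in Cxcl5-/- libraries. Srxn1 levels were 45.5, 44.7 and 45.9 CPM with Hif1a OE and 56.5, 46.99 and 47.01 CPM with Myc OE. Its WT values were the highest and the overexpression values lay under those of Cxcl5-/-, with log2 fold changes of -0.43 ± 0.091 (adjusted p = 0.00343) and -0.28 ± 0.091 (adjusted p = 0.03) against Cxcl5-/- and -0.85 ± 0.091 (adjusted p = 0.00011) for Hif1a OE against WT. The call of Hif1a OE against Cxcl5-/- was lost without Cxcl5-/- replicate 2 (-0.38, adjusted p = 0.0518), and that of Myc OE without Cxcl5-/- replicate 1 (-0.30) or 2 (-0.24) or Myc OE replicate 2 (-0.23) or 3 (-0.24).

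Among the peroxiredoxins, Prdx1 was at 456 and 470.4 CPM in WT and 349.9 and 356 CPM in Cxcl5-/- libraries. Prdx1 levels were 545, 707 and 456 CPM with Hif1a OE and 981, 919.5 and 864 CPM with Myc OE. The Myc OE values were the highest, with a log2 fold change of 1.38 ± 0.16 (adjusted p = 2.94e-05) against Cxcl5-/-. Prdx3, the mitochondrial form, was at 101 and 108 CPM in WT and 77.5 and 84.1 CPM in Cxcl5-/- libraries. Prdx3 levels were 149.7, 169 and 119.6 CPM with Hif1a OE and 211, 189 and 188 CPM with Myc OE. Both overexpression groups lay above both others, with a log2 fold change of 0.85 ± 0.13 (adjusted p = 0.000348) with Hif1a OE and 1.28 ± 0.13 (adjusted p = 1.63e-05) with Myc OE against Cxcl5-/-. Prdx5 was at 286 and 284 CPM in WT and 152 and 162 CPM in Cxcl5-/- libraries. Prdx5 levels were 311, 400.1 and 309 CPM with Hif1a OE and 356, 333 and 279 CPM with Myc OE. Only its Cxcl5-/- values were low, with a log2 fold change of -0.86 ± 0.14 (adjusted p = 0.000712) against WT, and with Hif1a OE it was higher than in Cxcl5-/-, with a log2 fold change of 1.11 ± 0.14 (adjusted p = 6.66e-05). Prdx2 was at 129 and 136 CPM in WT and 158 and 169 CPM in Cxcl5-/- libraries. Prdx2 levels were 234, 295 and 201 CPM with Hif1a OE and 286, 265 and 231 CPM with Myc OE. It was higher with Hif1a OE than in WT, with a log2 fold change of 0.88 ± 0.15 (adjusted p = 0.00176).

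Gpx4 was at 229.7 and 221 CPM in WT and 176 and 186 CPM in Cxcl5-/- libraries. Gpx4 levels were 317, 431 and 315 CPM with Hif1a OE and 455, 394 and 339 CPM with Myc OE. The overexpression values lay above all WT and Cxcl5-/- values, with a log2 fold change of 0.97 ± 0.15 (adjusted p = 0.000444) with Hif1a OE and 1.13 ± 0.15 (adjusted p = 0.000127) with Myc OE against Cxcl5-/-, while Cxcl5-/- and WT differed by -0.32 (95% interval -0.64 to 0.0038, adjusted p = 0.133), which passed with the DESeq2 Wald test (-0.42, adjusted p = 0.0292). Aifm2 was at 11.5 and 9.85 CPM in WT and 15.6 and 15.2 CPM in Cxcl5-/- libraries. Aifm2 levels were 11.7, 13.8 and 11.9 CPM with Hif1a OE and 15.7, 11.3 and 13.01 CPM with Myc OE. Its Cxcl5-/- values were above those of WT, with a log2 fold change of 0.53 ± 0.16 (adjusted p = 0.0249), lost without either Cxcl5-/- library (0.51, adjusted p = 0.114 and 0.56, adjusted p = 0.0839) or WT replicate 2 (0.43, adjusted p = 0.156), and with the overexpressed genes it did not pass with TMM but was lower than in Cxcl5-/- with library totals (-0.53, adjusted p = 0.00939 with Hif1a OE and -0.55, adjusted p = 0.00682 with Myc OE). Sod2 was at 64.4 and 66.2 CPM in WT and 67.5 and 65.8 CPM in Cxcl5-/- libraries. Sod2 levels were 86.8, 104 and 83.3 CPM with Hif1a OE and 122, 129 and 119 CPM with Myc OE. WT and Cxcl5-/- overlapped, and Myc OE was above all other groups, with a log2 fold change of 0.89 ± 0.10 (adjusted p = 2.74e-05) against Cxcl5-/-. Catalase, Cat, was at 49.2 and 46.6 CPM in WT and 43.5 and 41.7 CPM in Cxcl5-/- libraries. Cat levels were 47.4, 38.1 and 44.7 CPM with Hif1a OE and 57.1, 61.1 and 61.2 CPM with Myc OE. It was higher with Myc OE than with Hif1a OE, with a log2 fold change of 0.46 ± 0.087 (adjusted p = 0.00303), which did not pass with library totals (0.34, adjusted p = 0.0786). Gss was at 23.96 and 19.7 CPM in WT and 19.5 and 22.9 CPM in Cxcl5-/- libraries. Gss levels were 14.2, 13.3 and 13.9 CPM with Hif1a OE and 13.05, 15.05 and 14.8 CPM with Myc OE. It was lower with Hif1a OE than in WT, with a log2 fold change of -0.66 ± 0.12 (adjusted p = 0.00275), a call lost without WT replicate 1 (-0.51, adjusted p = 0.0566).

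Against WT, Hif1a OE Cxcl5-/- had 9 members higher and 8 lower (13.9% and 10.3% of all genes), and 5 and 10 with library totals or DESeq2 size factors. Under all 3 scalings Gpx1, Gpx4, Prdx2, Prdx4 and Sod2 were called higher and Gclc, Ggct, Gss, Gstm2, Gstm5, Nfe2l2, Slc7a11 and Srxn1 lower. Myc OE Cxcl5-/- had 14 higher and 8 lower than WT (17.1% and 14.7%), 10 and 10 with DESeq2 size factors and 8 and 11 with library totals. Higher under all 3 were Gpx4, Gstm1, Mgst1, Nqo1, Prdx1, Prdx2, Prdx3 and Sod2, and lower were Gclc, Gss, Gstm5, Gsto1, Mgst3, Nfe2l2, Slc7a11 and Srxn1. Myc OE against Hif1a OE gave 9 higher and 3 lower (9.54% and 9.73%), and 7 and 5 with library totals. The median of all genes moved from -0.10 in TMM to -0.27 with library totals for Hif1a OE against WT. It moved from -0.17 to -0.46 for Myc OE against WT and from -0.015 to -0.13 for Myc OE against Hif1a OE. These comparisons share samples with each other. Those against WT rest on 2 WT samples, and the calls of Hif1a OE against WT fell from 17 to 8 without WT replicate 1, 9 without WT replicate 2 and 11 without Hif1a OE replicate 1. Nfe2l2 lost its call against WT without either WT library in both overexpression comparisons (-0.28 with Hif1a OE and -0.27 with Myc OE). With Hif1a OE, Prdx4 (0.51), Sod2 (0.47) and Gss (-0.51) lost theirs without WT replicate 1 and Gpx4 (0.64) without WT replicate 2. Ggct and Gstm2 did so without either WT library or without Hif1a OE replicate 1 or 3 (-0.80 to -0.38 and -0.63 to -0.51). Gss with Myc OE was lost without WT replicate 1 (-0.45).

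The culture and the rescue tables share no samples. Of the 14 members lower in 3D Cxcl5-/- than 3D WT in the culture table, 8 (57.1%) were lower in Cxcl5-/- than WT in the rescue table, beside 59.9% of all genes lower in the culture table. Of the same 14, 9 (64.3%, beside 60.3%) were higher with Hif1a OE and 10 (71.4%, beside 57.4%) with Myc OE. Of the 4 members higher in 3D Cxcl5-/-, 1 (25.0%, beside 69.4% of all such genes) was higher in rescue Cxcl5-/-. Of the same 4, 1 was higher and 0 lower with Hif1a OE against Cxcl5-/- (beside 5.35% and 55.8% of all such genes), and 2 were higher and 2 lower with Myc OE (beside 8.37% and 56.7%). Gsta4 was the member higher in Cxcl5-/- in both tables, while Nqo1 (0.088, 95% interval -0.10 to 0.28, adjusted p = 0.489), Txnrd1 (0.17, 95% interval -0.082 to 0.41, adjusted p = 0.304) and Mgst1 (0.12, 95% interval -0.15 to 0.38, adjusted p = 0.506) did not pass there in log2 fold change.

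The neighbouring genes of these pathways were counted in 5 further lists of 77 genes, of which 69 were tested in the culture and 74 in the rescue table. In 3D Cxcl5-/- against 3D WT 13 were higher and 37 lower (19.7% and 25.3% of all genes). The direction of this count depends on the scaling: DESeq2 size factors also gave 13 and 37, but library totals gave 20 higher and 12 lower. With library totals the median of all genes was 0.35, compared with -0.04 in TMM. The counts by list that follow are those with TMM. Further NRF2 targets gave 2 higher and 9 lower of 15, led by Ugdh, UDP-glucose dehydrogenase (-1.24 ± 0.081, adjusted p = 6.53e-08), the haem oxygenase Hmox1 (-1.27 ± 0.091, adjusted p = 1.39e-07) and the epoxide hydrolase Ephx1 (-1.17 ± 0.10, adjusted p = 5.53e-07) in log2 fold change. Other glutathione genes gave 5 higher and 11 lower of 23, with Slc3a2, the heavy chain that partners Slc7a11, at -0.81 ± 0.093 (adjusted p = 1.09e-05) and the glutathione-degrading Chac1 at -0.92 ± 0.11 (adjusted p = 1.86e-05). Other thioredoxin and methionine sulfoxide genes gave 5 and 7 of 13, with the sestrin Sesn3 at 2.54 ± 0.14 (adjusted p = 1.25e-08) and the thioredoxin inhibitor Txnip at 0.97 ± 0.079 (adjusted p = 4.99e-07). NADPH supply gave 1 and 5 of 9, with the mitochondrial transhydrogenase Nnt at 0.63 ± 0.078 (adjusted p = 2.2e-05) and Idh2 at -0.55 ± 0.10 (adjusted p = 0.000452), and lipid peroxidation genes 0 and 5 of 9, with the acyl-CoA synthetase Acsl3 at -1.12 ± 0.088 (adjusted p = 3.51e-07). With library totals the lists gave, in the same order, 5 higher and 5 lower, 6 and 3, 6 and 0, 1 and 1, and 2 and 3. The lipid peroxidation list was not split by whether a gene promotes or limits peroxidation, so its count gives no direction for that process.

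In 3D WT against 2D WT the 77 listed genes gave 30 higher and 15 lower of 69 (22.2% and 22.0% of all genes), 22 and 22 with library totals and 33 and 13 with DESeq2 size factors, with Hmox1 at 2.86 ± 0.10 (adjusted p = 1.66e-10) and Txnip at 3.12 ± 0.087 (adjusted p = 3.16e-11), and 2D Cxcl5-/- against 2D WT gave 7 and 1 (3.86% and 3.17%). The further NRF2 targets gave 6 higher and 5 lower of 15 in 3D WT against 2D WT with TMM, 3 and 7 with library totals and 7 and 3 with DESeq2 size factors. In the rescue table Cxcl5-/- against WT gave 11 higher and 29 lower of 74 (17.6% and 24.3% of all genes, 11 and 27 with library totals), with Hmox1 at -2.24 ± 0.14 (adjusted p = 5.63e-07), Chac1 at -3.38 ± 0.14 (adjusted p = 6.69e-08) and Sesn3 at 4.16 ± 0.14 (adjusted p = 1.92e-08). Hif1a OE against Cxcl5-/- gave 29 higher and 7 lower (20.5% and 15.0%), or 23 and 13 with library totals, with the pentose phosphate enzymes Tkt at 1.09 ± 0.078 (adjusted p = 1.89e-06) and G6pdx at 0.99 ± 0.092 (adjusted p = 1.08e-05). Myc OE against Cxcl5-/- gave 35 higher and 9 lower (21.6% and 18.0%), or 26 and 18 with library totals, with Tkt at 1.59 ± 0.080 (adjusted p = 1.38e-07), the ferritin light chain Ftl1 at 1.43 ± 0.17 (adjusted p = 4.02e-05) and the mitochondrial NAD kinase Nadk2 at 2.19 ± 0.20 (adjusted p = 5.73e-06). Sesn3 stood at -3.49 ± 0.12 (adjusted p = 2.74e-08) with Hif1a OE and -2.57 ± 0.11 (adjusted p = 5.69e-08) with Myc OE against Cxcl5-/-.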

How the data were processed

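The data are 3 deposited tables of gene counts covering 31 samples of Panc02 cells. Per the labels and the study's methods, TruSeq stranded total RNA libraries were read in pairs on a NovaSeq. The authors used HISAT2 for alignment to GRCm38/mm10 and deposited StringTie counts without normalization. The annotation release, the conversion of StringTie output to counts and the use of strand in counting are not given in the sources used here. Of the 37 members, 3 share over 10% of their exonic bases with a gene on the opposite strand (Gstm5 13.9%, Keap1 10.9%, Prdx5 19.1%), where reads of the partners could be counted if strand was not used.

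Samples were grouped by their labels. Each table was fitted whole with edgeR 4.0.16 (R 4.3.3), by the quasi-likelihood test on TMM-scaled counts after filterByExpr had removed genes of low count, with Benjamini-Hochberg adjustment over 19207, 21367 or 28730 genes. Genes with an adjusted p under 0.05 were called. Log2 fold changes are given with the SE, taken as their size over the square root of F. CPM uses the TMM-scaled library size. A fold against libraries at 0 counts was computed against a floor of 3 counts per library. Depth was 41542533 to 78498230 counts per sample, and precision is given by the SD or SE between samples.

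The members and gene lists were chosen with earlier results of these data known. Values per sample are given for Nfe2l2, Keap1, Slc7a11, Gclc, Gpx4 and Aifm2 and for up to 6 members per comparison (3 for conditioned media, by lowest p) with the lowest adjusted p among called members whose groups did not overlap in CPM. In the pathway lists up to 3 genes per list and comparison are named, by lowest adjusted p. Tried as alternatives were library totals or the size factors of DESeq2 1.42.0 for scaling, that tool's Wald test, no filter on low counts, the sum of entries with one symbol, a replicate block and the removal of each sample. The sum of Gpx4 with its pseudogenes and the counts of the pathway lists under the other scalings were chosen after seeing the data. Where leaving out a sample left 1 in a group, that sample was assumed to vary like the other groups. Replicates differed by more than sampling noise. Tables were handled in Python 3.11.15, and promoter sequences came from RefSeq (GRCm38.p6).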

Additional observations from a re-analysis of the deposited data

Results flagged for a closer look

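The difference between the 3D and the 2D effect of the Cxcl5-/- genotype (log2 fold change in 3D less that in 2D) passed the test of the difference itself for 14 members, by edgeR's quasi-likelihood test with all 12 culture samples in the fit and adjustment over all genes tested. The effect was lower in 3D for the cystine importer Slc7a11 -1.77 ± 0.15 (adjusted p = 2.77e-06), the transferase Gsto1 -1.53 ± 0.14 (adjusted p = 8.24e-06), thioredoxin Txn1 -1.05 ± 0.18 (adjusted p = 0.000831) and the transferase Mgst3 -0.99 ± 0.20 (adjusted p = 0.00228). It was also lower for Txn2 -0.77 ± 0.23 (adjusted p = 0.0226), Gstm2 -0.76 ± 0.20 (adjusted p = 0.0149), Nfe2l2 -0.69 ± 0.11 (adjusted p = 0.000403), Gstm1 -0.63 ± 0.13 (adjusted p = 0.00283), Prdx3 -0.55 ± 0.16 (adjusted p = 0.0222) and Gclc -0.43 ± 0.10 (adjusted p = 0.00533), and these last 6 did not pass with library totals in place of TMM. The effect was higher in 3D for Gsta4 0.84 ± 0.18 (adjusted p = 0.00452), Txnrd1 0.54 ± 0.15 (adjusted p = 0.0151), Nqo1 0.46 ± 0.15 (adjusted p = 0.0356) and Gsr 0.41 ± 0.13 (adjusted p = 0.0275). The Gsr call was lost without 2D WT replicate 1 or 3, 2D Cxcl5-/- replicate 2 or 3, any 3D WT library, or 3D Cxcl5-/- replicate 1 or 3, where its value was 0.30 to 0.42. The Nqo1 call was lost without any 2D WT or 3D WT library, 2D Cxcl5-/- replicate 2 or 3, or 3D Cxcl5-/- replicate 1, at 0.26 to 0.46. Txnrd1 lost its call without 2D WT replicate 1 (0.39), 2D Cxcl5-/- replicate 2 (0.44) or 3D WT replicate 3 (0.48), Prdx3 without 2D Cxcl5-/- replicate 1 (-0.46) or 3D Cxcl5-/- replicate 2 (-0.44), and Txn2 without 2D Cxcl5-/- replicate 1 (-0.62). No group had more than 3 samples, so single values standing apart were not tested.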

How the results depend on the processing

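The count of called members stayed within 1.5 times the TMM count except in the cases given here. The DESeq2 Wald test called 23 members (3 higher, 20 lower) in rescue Cxcl5-/- against WT, where edgeR called 15. Leaving out each sample in turn gave 15 to 20 called members in 3D WT against 2D WT, 13 to 25 in 3D Cxcl5-/- against 3D WT (25 without 3D Cxcl5-/- replicate 1), 1 to 4 in 2D Cxcl5-/- against 2D WT (1 without 2D WT replicate 1), 25 to 27 in 3D against 2D Cxcl5-/-, 11 to 18 for the interaction and 9 to 13 in rescue Cxcl5-/- against WT (9 without Cxcl5-/- replicate 1). It gave 16 to 21 with Hif1a OE and 21 to 25 with Myc OE against Cxcl5-/-, 8 to 18 with Hif1a OE and 14 to 20 with Myc OE against WT (14 without WT replicate 1), 10 to 16 for Myc OE against Hif1a OE and 0 in the conditioned media. With the replicate number as a block the counts were 21, 18, 3, 27 and 15 in the culture comparisons in that order, 21 in rescue Cxcl5-/- against WT, 23 and 28 with Hif1a OE and Myc OE against Cxcl5-/-, 22 and 25 against WT, 14 for Myc OE against Hif1a OE, and 0 in the conditioned media. Samples of the same number did not deviate together on average (mean correlation 0.037 in the conditioned media, 0.025 in culture and 0.004 in the rescue samples). Single pairs ran from -0.24 to 0.36 in the conditioned media. With so few samples per group this cannot settle whether the numbers pair samples, and the main fits treat them as unpaired. Values that changed sign were Keap1 in 3D WT against 2D WT (0.056 with DESeq2 or its size factors, -0.14 to 0.11 on leaving out a sample), and, with library totals, Gpx4 (0.16), Keap1 (0.057), Nfe2l2 (0.033) and Prdx3 (0.058) in 3D Cxcl5-/- against 3D WT and Keap1 with Myc OE against WT (-0.029). Nqo1 in rescue Cxcl5-/- against WT was -0.011 with DESeq2 or its size factors. Nfe2l2 against Cxcl5-/- was -0.038 (DESeq2) and -0.037 (its size factors) with Hif1a OE and -0.011 with Myc OE by DESeq2 or its size factors, -0.22 and -0.32 with library totals, and -0.030 to 0.042 with Hif1a OE on leaving out a sample. Slc7a11 with Myc OE against Cxcl5-/- was -0.18 to 0.039 on leaving out a sample. Why these moved was not tested. Over all values for named members and all alternatives, 2311 kept their direction and side of the threshold, 278 lost the call, 13 gained it and 22 changed sign. Members under 10 CPM in every group rest on few counts.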
